A study of Mus musculus with 2 samples.

Results

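The EGF family ligands and the ErbB receptors are described here in the tongue of the mouse. The ligands are *Egf*, *Tgfa*, *Hbegf*, *Areg*, *Ereg*, *Epgn* and *Btc*, and the receptors are *Egfr*, *Erbb2* and *Erbb3*. The members were chosen by gene symbol, and each of the 10 symbols matched 1 of the 18498 rows of the deposited gene table. The study compared the circumvallate papillae (CvP), which carry taste buds at the back of the tongue, with tongue epithelium without papillae (Epi). Each tissue was represented by 1 poly(A) RNA library, and each library held pooled RNA of 20 or more male C57BL/6J mice aged 12 to 30 weeks. The mice ate normal chow, and the labels name no treatment. In the paper, sex and age are stated for its RT-PCR mice and chow for its animals in general, not for the sequenced pools. Since each tissue had 1 pooled library, animals could not be compared with each other, replicates were absent, and no p-value was calculated.

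EGF family ligands are made as membrane-anchored precursors, and proteases of the cell surface cut them to release the active growth factor. A released ligand binds an ErbB receptor tyrosine kinase, the receptors pair, and the pair signals through the RAS, ERK and PI3K pathways. In stratified epithelia this system controls proliferation, migration and repair of keratinocytes. EGFR binds the ligands described here. ErbB2 has no ligand of its own and acts as a partner of the other receptors, and ErbB3 has little kinase activity, binds neuregulins and signals mainly in pairs with ErbB2.

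The ligands share an EGF-like domain held together by 6 cysteines, and its coding sequence is shown here because it defines the family beyond the gene symbol. The sequences run 5′ to 3′ from the codon of the first cysteine to that of the sixth, with the cysteine codons in capitals. They were taken from the longest coding transcript of each gene in GENCODE M1, the annotation of NCBI37/mm9.
Epgn: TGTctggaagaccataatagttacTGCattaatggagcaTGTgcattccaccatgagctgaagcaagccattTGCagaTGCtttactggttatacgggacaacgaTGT
Ereg: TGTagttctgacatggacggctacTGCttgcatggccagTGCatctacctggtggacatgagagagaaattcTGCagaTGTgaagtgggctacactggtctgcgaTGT
Areg: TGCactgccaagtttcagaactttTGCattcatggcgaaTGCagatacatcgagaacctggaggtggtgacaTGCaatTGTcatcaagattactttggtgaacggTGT
Btc: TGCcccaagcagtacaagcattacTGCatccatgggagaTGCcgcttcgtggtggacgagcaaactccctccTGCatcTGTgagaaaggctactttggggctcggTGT
Tgfa: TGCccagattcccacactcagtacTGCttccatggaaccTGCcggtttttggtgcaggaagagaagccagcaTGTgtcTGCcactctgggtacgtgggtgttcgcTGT
Egf: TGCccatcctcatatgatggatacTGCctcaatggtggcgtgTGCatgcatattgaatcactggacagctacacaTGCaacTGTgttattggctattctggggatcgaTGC

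The domain was located by searching the translated coding sequences for 6 cysteines at the spacing of the family. The gaps of 7, 1 and 8 codons were fixed in the search, and the other gaps could vary only narrowly. The spacing is thus largely a condition of the search. In *Epgn*, *Ereg*, *Areg*, *Btc* and *Tgfa* the codons between successive cysteines numbered 7, 4, 10, 1 and 8, so that the domain had 108 bases in each. *Hbegf*, of which no sequence is shown, had the same spacing. *Egf* had 5 codons between the second and the third cysteine and a domain of 111 bases. The domain was split by an intron at the same place in these 5 short ligands, after base 77, between exons 3 and 4. In *Egf*, whose transcript has 24 exons, the intron lay after base 80, between exons 20 and 21. The domains of *Epgn* (91460178 to 91461263), *Ereg* (91517522 to 91518137), *Areg* (91572640 to 91573390) and *Btc* (91791447 to 91795223) lie on chromosome 5, that of *Tgfa* on chromosome 6 (86213194 to 86219954) and that of *Egf* on chromosome 3 (129389240 to 129393768). The precursors differ more in size than the domains, from 152 codons in *Epgn* to 1217 codons in *Egf*.

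The levels are RPKM values, which are read densities per kilobase of exon model and per 1000000 mapped reads. The steps between the lowest values in rows of 0.1 kb correspond to about 28375281 mapped reads for CvP and 27908511 for Epi. The reads behind each gene were derived from these depths. The 95% intervals of the ratios are exact (Clopper-Pearson), come from these reads and leave out all error but that of counting, and PCR copies were counted as independent molecules. In bulk tissue, fewer cells of a type and less RNA per cell cannot be told apart. Genes tended to higher values in the CvP, with a median CvP/Epi ratio of 1.31 over the 10363 rows with 1 RPKM or more in both libraries. Among the 12549 rows that reached 1 RPKM in at least 1 library, 28.2% were more than 2-fold higher in the CvP and 3.75% more than 2-fold lower. The members are read against these shares.

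Of the 7 ligands, *Hbegf* and *Areg* were higher in the CvP and *Epgn* and *Ereg* were higher in the Epi, each by more than 2-fold, while the receptors stayed within 2-fold. *Tgfa* and *Btc* were also within 2-fold, and *Egf* was under an RPKM of 1 in both libraries. Among the 9 members that reached 1 RPKM in at least 1 library, 2 (22.2%) were thus higher and 2 (22.2%) lower. The same members were past 2-fold after the ratios had been divided by the median ratio and after both libraries had been rescaled to a common sum.

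**Figure D1:**
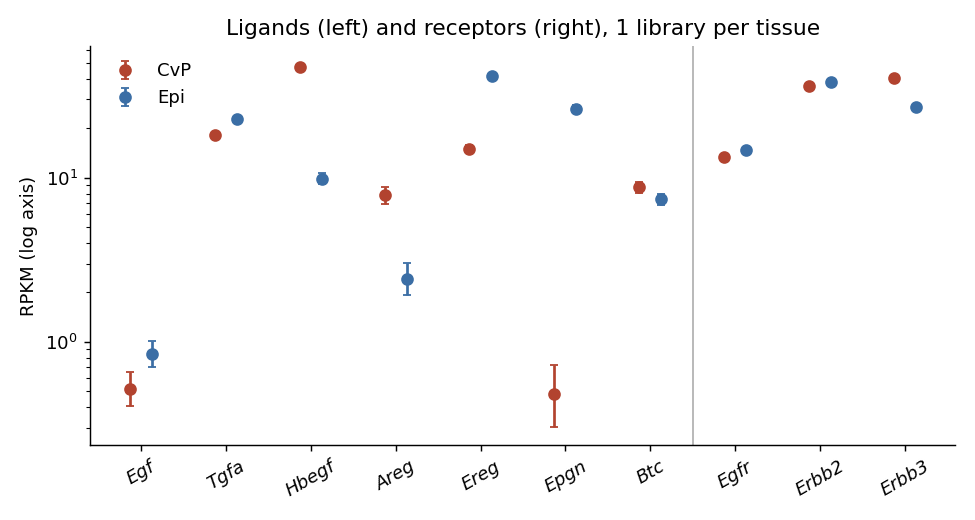
RPKM of the 7 ligands and the 3 receptors in the CvP library (red) and the Epi library (blue) on a log axis; bars are 95% exact Poisson intervals of counting error and are often smaller than the symbol. The pairs of points lie far apart for *Hbegf*, *Areg*, *Ereg* and *Epgn* and close together for the receptors.

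*Hbegf*, the heparin-binding ligand that is induced in wounded epithelium, had the highest level of the 10 genes in the CvP. It reached 47.4 RPKM in the CvP against 9.85 in the Epi, which gave a ratio of 4.81 (95% interval 4.42 to 5.24). By RPKM it was number 1048 of all rows in the CvP and number 4372 in the Epi. The gene lies on the minus strand of chromosome 18 of NCBI37/mm9, from 36664581 to 36675459. It met the criteria that the study set for genes of the papilla (more than 10 RPKM in the CvP and a quotient over the Epi above 3) as 1 of the 10 members. Over all rows 2.35% met them, or 435 of 18498. A larger number of genes was reported in the paper for the same limits. The reason for this difference was not tested.

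*Areg* encodes amphiregulin, a ligand that keratinocytes make and respond to themselves. It reached 7.82 RPKM in the CvP against 2.42 in the Epi, with a ratio of 3.23 (2.51 to 4.20). The gene thus passed the ratio of the study's criteria but not the minimum RPKM. The interval of *Areg* lay below that of *Hbegf*.

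*Epgn* encodes epigen, a ligand of low affinity for EGFR. It had 0.48 RPKM in the CvP, from about 23 reads, and 26.2 RPKM in the Epi, from about 1248. It was 54.7-fold lower in the CvP (95% interval 36.6 to 87.4), and it was number 33 from the bottom when the 12549 rows were ordered by ratio. *Epgn* was the single member that met the same criteria with the tissues exchanged, which 0.600% of all rows met. In the CvP its level did not differ beyond counting error from that of *Egf*, whereas in the Epi it was above *Egf*, *Areg*, *Btc* and *Egfr* on the deposited and on the annotated length.

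*Ereg* encodes epiregulin, which binds EGFR and ErbB4. It reached 15.0 RPKM in the CvP against 41.7 in the Epi, where it was the highest of the 10 genes on the deposited scale. The ratio was 0.360 (0.341 to 0.380), that is, 2.78-fold lower in the CvP. Divided by the median ratio of all rows, the fold was 3.64. Unlike *Epgn*, *Ereg* still had about 1764 estimated reads in the papilla.

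*Tgfa*, the gene of transforming growth factor alpha, an EGFR ligand of many epithelia, stood at 18.2 RPKM in the CvP against 22.7 in the Epi. Its ratio of 0.800 (0.753 to 0.850) was below 1 as deposited and under each of the scalings tried. After rescaling to a common sum it was 0.965, so close to 1 that its direction is uncertain on that scale. *Btc* encodes betacellulin, which binds EGFR and ErbB4, and stood at 8.72 RPKM in the CvP against 7.36 in the Epi. Its ratio was 1.18 (1.06 to 1.33) as deposited but 0.902 when divided by the median ratio, so that no direction can be given for it. *Egf* itself was the lowest ligand in the Epi, at 0.85 RPKM (about 113 reads) against 0.52 RPKM in the CvP (about 70 reads). The ratio was 0.612 (0.446 to 0.828).

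**Figure D2:**
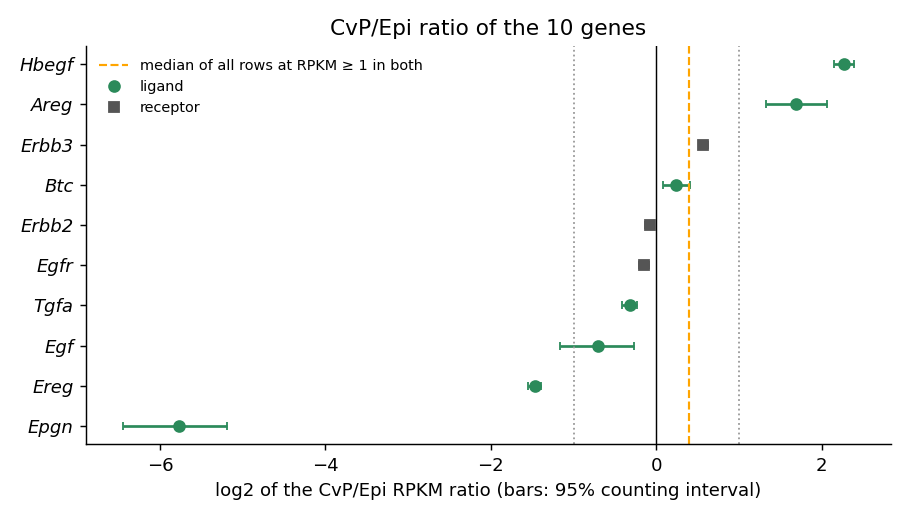
Log2 of the CvP/Epi RPKM ratio of each gene, with 95% counting intervals; circles are ligands, squares are receptors, dotted lines mark 2-fold and the dashed line the median of all rows with 1 RPKM or more in both libraries (0.39). The ligands span log2 values from -5.77 (*Epgn*) to 2.27 (*Hbegf*), and the receptors from -0.15 (*Egfr*) to 0.57 (*Erbb3*).

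The receptor genes differed little between the libraries. *Egfr* stood at 13.3 RPKM in the CvP against 14.7 in the Epi. *Erbb2* stood at 36.3 and 38.4. The ratios, 0.901 (0.862 to 0.941) for *Egfr* and 0.945 (0.910 to 0.982) for *Erbb2*, were slightly below 1 as deposited and slightly above 1, at 1.09 and 1.14, after rescaling to a common sum. *Erbb3* stood at 40.2 RPKM in the CvP against 27.0 in the Epi. Its ratio was 1.49 (1.43 to 1.54) and stayed above 1 under each scaling, down to 1.13. Exons of *Erbb2* share 9 bases with *1810046J19Rik* on the opposite strand, itself at 53.8 RPKM (CvP) and 52.7 RPKM (Epi), and no other member overlaps an exon of another annotated gene.

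Both libraries held more *Erbb2* and *Erbb3* than *Egfr* per kilobase. *Erbb3* was 3.03 times the RPKM of *Egfr* in the CvP against 1.83 times in the Epi, and *Erbb2* was 2.74 and 2.61 times. The summed RPKM of the 3 receptors was 89.7 in the CvP against 80.1 in the Epi. *Hbegf* was 3.57 times the RPKM of *Egfr* in the CvP against 0.669 times in the Epi on the deposited scale. It was above *Egfr* in both, at 13.5 and 2.54 times, when the reads implied by the listed length were divided by the annotated transcript length.

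The summed RPKM of the 7 ligands was 98.1 in the CvP against 111 in the Epi, and its make-up differed. In the CvP *Hbegf* held 48.3% of the sum, *Tgfa* 18.5% and *Ereg* 15.3%. In the Epi *Ereg* held 37.5%, *Epgn* 23.6% and *Tgfa* 20.4%, and the share of *Hbegf* was 8.86%. *Hbegf* and *Areg* together made up 56.3% of the ligand sum in the CvP against 11.0% in the Epi. The shares of *Ereg* and *Epgn* together were 15.8% (CvP) and 61.1% (Epi).

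Such shares compare genes with each other and depend on the length that a read density is divided by. The listed length equalled or nearly equalled the longest annotated coding transcript for *Ereg* and *Epgn*, but it was 4.61 times as long for *Hbegf*, 4.67 times for *Areg*, 2.73 times for *Tgfa* and 2.07 times for *Btc*. For such genes the reads implied by the listed length exceed those used for the intervals. For *Hbegf* in the CvP they were about 14710 against 3191. With the reads implied by the listed length assigned to the annotated length, the ligand sum was 338 in the CvP and 202 for the Epi. That is the reverse of the order on the deposited scale, and it holds only if all those reads belong to the annotated transcript. *Hbegf* and *Areg* then held 75.2% of the ligand sum in the CvP against 28.1% in the Epi, and *Ereg* and *Epgn* 4.57% and 33.2%. On this scale *Hbegf* was still highest in the CvP, whereas the highest gene of the Epi was *Tgfa*, whose interval overlapped that of *Erbb2*, rather than *Ereg*. The CvP/Epi ratio of a gene does not depend on its length.

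**Figure D3:**
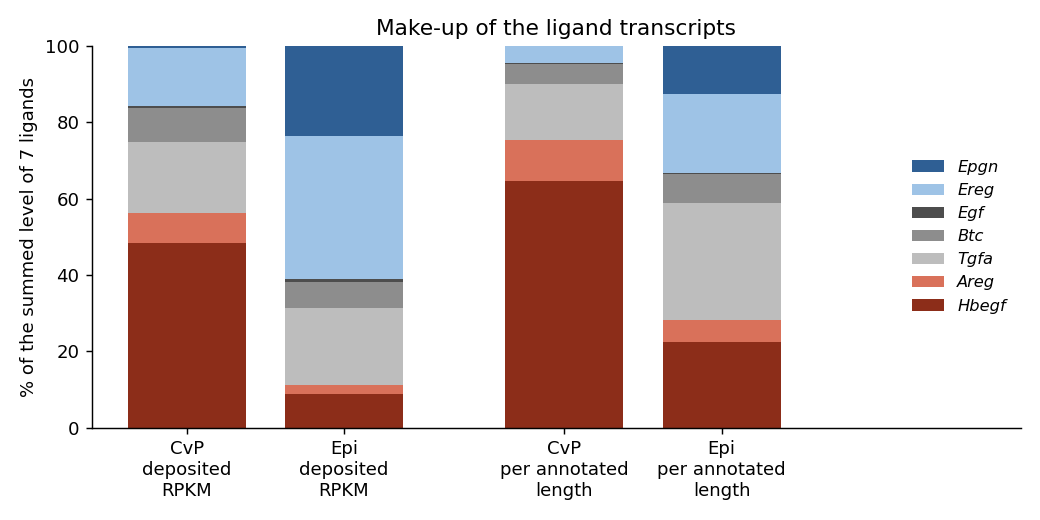
Share of each ligand in the summed level of the 7 ligands, in percent, for the CvP and the Epi library, on the deposited RPKM (left pair) and per annotated transcript length (right pair). The red segments (*Hbegf* and *Areg*) are larger in the CvP and the blue segments (*Ereg* and *Epgn*) larger in the Epi on both scales.

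In order of deposited RPKM the CvP library had *Hbegf*, *Erbb3*, *Erbb2*, *Tgfa*, *Ereg*, *Egfr*, *Btc*, *Areg*, *Egf* and *Epgn*. The counting intervals of *Btc* and *Areg* overlapped, as did those of *Egf* and *Epgn*. The Epi library had *Ereg*, *Erbb2*, *Erbb3*, *Epgn*, *Tgfa*, *Egfr*, *Hbegf*, *Btc*, *Areg* and *Egf*. There the intervals of *Erbb3* and *Epgn* overlapped. On this scale *Epgn* was at place 10 in the CvP and 4 in the Epi, and *Hbegf* at 1 and 7. Per annotated length *Epgn* was at place 10 in the CvP and 6 in the Epi, and *Hbegf* at 1 and 3, with an interval in the Epi that overlapped that of *Erbb3*.

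The members with the widest differences include neighbours in the genome. *Epgn* (91456543 to 91464238), *Ereg* (91503643 to 91522675) and *Areg* (91568641 to 91577458) follow each other on the plus strand of chromosome 5 of NCBI37/mm9 within 120.9 kb, and *Btc* (91786287 to 91832020) lies 208.8 kb further on the minus strand. Gaps of 39.4 kb and 46.0 kb separate the first 3. Along this stretch the CvP/Epi ratio went from 0.0183 in *Epgn* and 0.360 in *Ereg* to 3.23 in *Areg* and 1.18 in *Btc*. In the CvP *Areg* had 16.3 times the RPKM of *Epgn*, and in the Epi *Epgn* had 10.8 times that of *Areg*. Per annotated length these values were 78.6 and 2.25, so that the libraries ordered the pair in opposite ways on both scales.

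Within 500 kb on either side of these ligands the table listed 10 genes that are not members. Of the 8 that reached 1 RPKM in at least 1 library, 7 were more than 2-fold higher in the CvP, against 28.2% of all rows. Most of these 7 were related chemokine genes that lie close together (*Cxcl5*, *Ppbp*, *Cxcl3*, *Cxcl1* and *Cxcl2*). They do not count as independent neighbours. The genes of this stretch included, named after their values were seen, the neutrophil-attracting chemokine genes *Cxcl5* (RPKM 33.5 in the CvP and listed at 0 in the Epi) and *Ppbp* (124 and 0.20), and *Mthfd2l* (2.11 and 1.51), the nearest gene before *Epgn*.

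**Figure D4:**
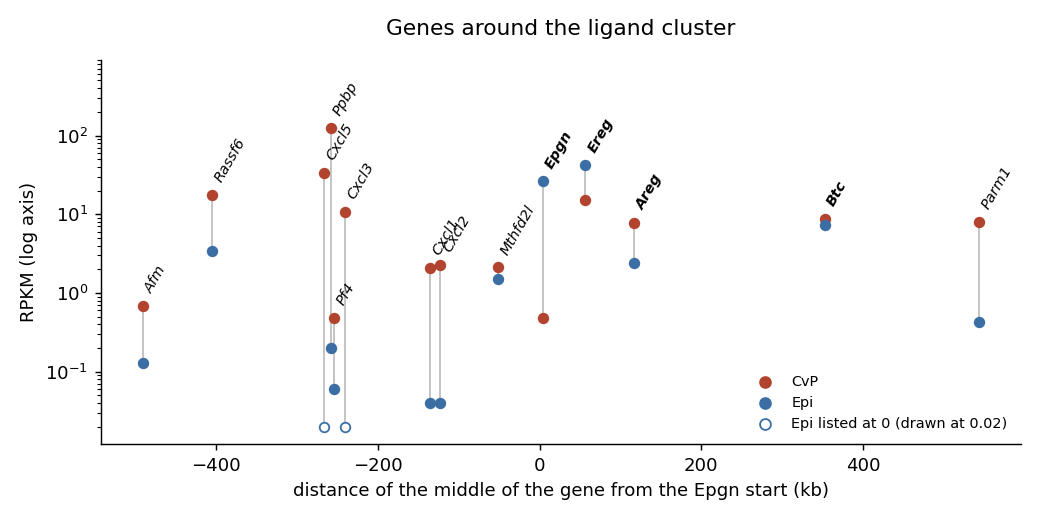
RPKM (log axis) of the genes around the ligand cluster in the CvP (red) and the Epi (blue), plotted at the distance of the middle of each gene from the *Epgn* start in kb; open circles are genes listed at 0 in the Epi, drawn at 0.02. The blue point is above the red one for *Epgn* and *Ereg* and below it for the other genes, where it lies close to the red one for *Btc* and *Mthfd2l*.

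The RefSeq table of promoters (GRCm38.p6) had an entry for 7 of the 10 members, *Ereg*, *Erbb3* and *Hbegf* not among them. The 250 bases before the start of *Epgn* and *Areg* are shown because these neighbours had opposite ratios. Both sequences were found once in NCBI37/mm9, at chr5:91456293-91456542 for *Epgn* and chr5:91568375-91568624 for *Areg*, on the plus strand. Capitals mark TATAAA, TGACGTCA (the cyclic AMP response element), GGGCGG (the GC box) and CCAAT (or its complement), and the AP-1 heptamers TGAGTCA or TGACTCA were searched as well, all on both strands.
Epgn: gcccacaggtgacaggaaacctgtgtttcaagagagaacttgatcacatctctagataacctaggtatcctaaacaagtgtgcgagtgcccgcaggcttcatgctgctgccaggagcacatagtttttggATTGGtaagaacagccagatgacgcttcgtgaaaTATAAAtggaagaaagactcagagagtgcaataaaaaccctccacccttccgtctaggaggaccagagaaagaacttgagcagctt
Areg: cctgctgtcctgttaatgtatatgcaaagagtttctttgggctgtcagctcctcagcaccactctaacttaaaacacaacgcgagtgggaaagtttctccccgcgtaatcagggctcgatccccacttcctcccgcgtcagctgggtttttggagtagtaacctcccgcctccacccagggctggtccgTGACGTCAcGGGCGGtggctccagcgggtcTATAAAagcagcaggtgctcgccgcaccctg

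Counted back from -1, the base before the start, *Areg* had TGACGTCA from -61 to -54, GGGCGG from -52 to -47 and TATAAA from -31 to -26. Of the 32536 distinct promoter windows of the same length, 1.56% held TGACGTCA, 33.0% held GGGCGG and 12.3% held TATAAA. In *Epgn* TATAAA lay from -86 to -81 and CCAAT, on the opposite strand, from -120 to -116, a motif found in 33.8% of the windows. The AP-1 heptamers, present in 4.45% of the windows, were in neither. The window of *Areg* had 57.2% G and C and 15 CpG dinucleotides, against 46.8% and 5 in that of *Epgn*. These matches describe the letters only.

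Neuregulins and *Erbb4*, the remaining family genes, were low in both libraries. *Nrg1*, the main ligand of ErbB3, stood at 0.97 RPKM in the CvP against 1.93 in the Epi, with a ratio of 0.503 (0.361 to 0.699). *Nrg4*, a ligand of ErbB4, had 1.61 and 0.60, a ratio of 2.68 (1.81 to 4.09). *Nrg2* had 0.17 and 0.26. *Nrg3*, at 0.06 in the CvP, and *Erbb4*, at 0.05, were both listed at 0 in the Epi. The summed RPKM of these 5 genes, 2.86 in the CvP against 2.79 in the Epi, was below the RPKM of *Egfr* alone in each library.

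Of 96 other genes of the pathway in 4 lists and these 5 genes, 92 in all reached 1 RPKM in at least 1 library. By the same rule 28 of the 92 (30.4%) were more than 2-fold higher in the CvP and 4 (4.35%) lower, near the shares over all rows. Their median log2 ratio was 0.31, below the median of 0.50 over the 12324 rows past the same minimum with a value in both libraries, and the median of the 9 ligands and receptors was -0.08. The latter was positive, at 0.15, after rescaling to a common sum. That rescaling raises the ratio of every row by the same factor, so that 0.15 is not to be set against 0.50.

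Among genes of ligand shedding and trafficking, with the shedding inhibitor *Timp3* counted among them, 5 of 11 (45.5%) were higher in the CvP and none lower. Over all rows the shares were 28.2% and 3.75%. *Timp3*, an inhibitor of the shedding proteases, reached 14.1 RPKM in the CvP against 0.80 in the Epi, with a ratio of 17.6 (14.4 to 21.5). *Nkd2*, which escorts the TGF-alpha precursor to the cell surface, had 4.54 and 0.41, and *Rhbdl2*, a rhomboid protease, 7.93 and 2.77. The principal sheddases, named after their values were seen, were expressed in both tissues. *Adam17* stood at 19.5 RPKM in the CvP against 14.1 in the Epi, and *Adam10* at 40.1 and 17.6.

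Of 36 adaptors and transducers 6 (16.7%) were higher in the CvP, 2 (5.56%) lower and 28 within 2-fold, with a median log2 ratio of 0.24. The shares over all rows were 28.2% higher and 3.75% lower. The highest ratios were those of *Eps8*, an EGFR substrate that acts on actin (RPKM 8.30 and 1.32, ratio 6.29), *Gab2*, a docking protein (2.21 and 0.36, ratio 6.14), and *Pik3r1*, a regulatory subunit of PI3K (9.89 and 3.73, ratio 2.65). Lower in the CvP were *Vav3*, a guanine nucleotide exchange factor (9.74 and 28.9, ratio 0.337), and *Eps8l1*, a relative of *Eps8* (63.5 and 131, ratio 0.485).

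Of 24 inhibitors and genes of receptor turnover 10 (41.7%) were higher in the CvP and 2 (8.33%) lower, against 28.2% and 3.75% over all rows. *Dusp4* and *Dusp6*, phosphatases of the MAP kinases, had CvP and Epi RPKM values of 8.47 and 0.58 and of 17.8 and 3.76, ratios of 14.6 (10.9 to 20.5) and 4.72 (4.17 to 5.38). *Lrig1*, a transmembrane protein that lowers ErbB receptor levels and marks epithelial stem cells, had 14.4 and 1.71, a ratio of 8.43 (7.38 to 9.70). *Sh3kbp1*, an adaptor of CBL in receptor endocytosis, was lower in the CvP (5.43 and 18.8, ratio 0.289), as was the nuclear ERK phosphatase *Dusp5* (10.6 and 21.4, ratio 0.496).

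Of 19 targets of ErbB and ERK signalling 6 (31.6%) were higher in the CvP and none lower, with a median log2 ratio of 0.15. These shares were near those over all rows, 28.2% and 3.75%. *Etv4* and *Etv5*, ETS factors induced by ERK, had ratios of 4.84 (RPKM 6.24 and 1.29) and 4.90 (9.16 and 1.87). *Plaur*, the urokinase receptor, had the highest ratio of the list, 18.7 (8.82 to 47.4), with 3.36 RPKM in the CvP against 0.18 in the Epi. These targets also respond to other receptor tyrosine kinases.

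**Figure D5:**
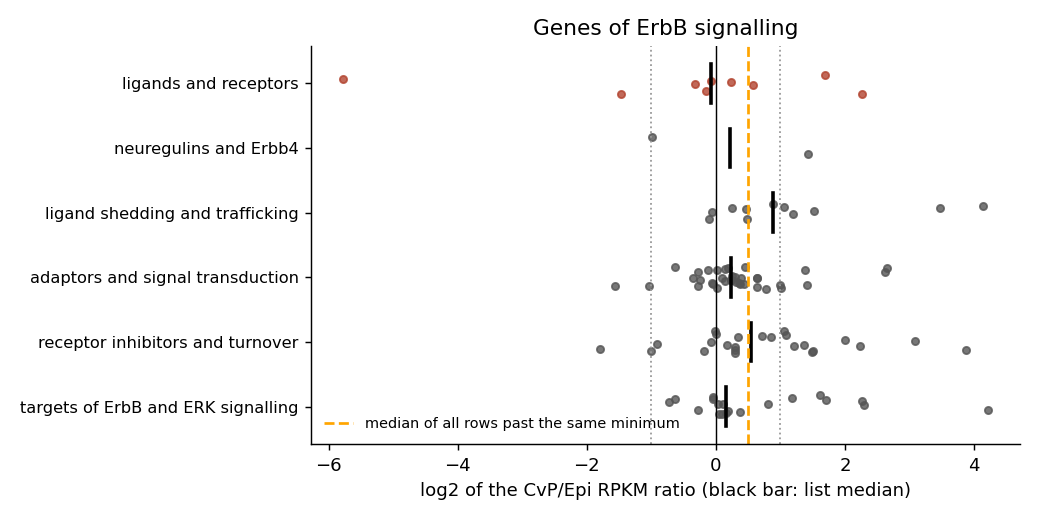
Log2 of the CvP/Epi RPKM ratio of the ligands and receptors (red) and of the genes of the 5 pathway lists (grey) that reached 1 RPKM in at least 1 library; black bars are list medians, dotted lines mark 2-fold and the dashed line is the median over all rows past the same minimum (0.50). *Epgn*, at -5.77, lies below every other gene plotted.

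The tissue labels and the cells in the samples were checked with marker genes. All 12 taste bud markers were more than 2-fold higher in the CvP, with a summed RPKM of 731 against 7.10, and *Kcnq1* and *Pkd2l1* were listed at 0 in the Epi. The highest were *Krt19* (198 and 0.91), *Gnat3* (127 and 0.03) and *Krt8* (113 and 0.36). Both libraries were rich in stratified epithelium, with 12 of 12 markers past 1 RPKM in at least 1 library and a summed RPKM of 39770.3 in the CvP against 91392 in the Epi, led by *Krt13* (17549 and 47815), *Krt4* (11801 and 22406) and *Krt6a* (3949 and 7499). Of these 12 markers 2 were more than 2-fold higher in the CvP and 4 lower.

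Markers of other cell types also differed between the libraries. Of 11 salivary gland markers past the minimum 7 were lower and 3 higher in the CvP, with a summed RPKM over 18 listed rows of 27.2 in the CvP against 435 in the Epi, led by *Lipf* (1.96 and 313), *Amy1* (0.85 and 80.5) and *Pigr* (12.0 and 0.54). *Dcpp1*, *Klk1b1*, *Klk1b16* and *Klk1b26* were listed at 0 in the CvP, and *Klk1* and *Klk1b16* in the Epi. All 9 skeletal muscle markers past the minimum were lower in the CvP (sum 7.89 and 70.9 over 10 rows), led by *Acta1* (0.86 and 12.9), *Tnni2* (2.53 and 12.3) and *Ckm* (0.67 and 10.6). Immune markers were higher in the CvP in 12 of 13 genes (sum 311 and 54.8 over 15 rows), led by *Lyz2* (132 and 0.43), *Cd74* (60.6 and 19.9) and *H2-Ab1* (30.5 and 13.6), with *Cd3e* listed at 0 in the Epi. The part of these cells in the values of the ligands and receptors was not tested.

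The remaining lists were mostly at low levels. Of 5 Schwann cell and nerve markers past the minimum 4 were higher in the CvP (sum 38.1 and 12.2 over 11 rows), led by *Uchl1* (15.0 and listed at 0), *Mbp* (10.3 and 8.94) and *Ngfr* (5.47 and 1.94). *Gap43* was listed at 0 in both libraries, and *Nefl*, *Nefm* and *Uchl1* in the Epi. *Sox10*, which is also in the salivary list, was at 0.18 and 0.08. Schwann cells use ErbB3 as their neuregulin receptor, and their part in the *Erbb3* values was not tested. Of 4 fibroblast markers past the minimum 2 were higher and 1 lower (sum 50.1 and 134 over 10 rows), led by *Dcn* (26.1 and 128), *Fbln1* (18.5 and 2.79) and *Vim* (3.99 and 2.79), with *Dpt* and *Lum* listed at 0 in the CvP. Over all 10 rows 3 were higher and 7 lower in the CvP by any amount. The collagen genes *Col1a1* (0.06 and 0.18), *Col1a2* (0.04 and 0.17) and *Col3a1* (0.05 and 0.25) were nearly absent from both libraries. Both vessel markers past the minimum, *Vwf* (4.45 and 0.09) and *Tek* (2.49 and 0.07), were higher in the CvP, with *Pecam1* at 0.28 and 0.12 (sum 7.28 and 0.36 over 5 rows). The endothelial genes *Kdr* (0.04 and 0.02) and *Cdh5* (0.02 and 0.06) were nearly absent from both libraries, and *Cdh5* was lower in the CvP.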

How the data were processed

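Poly(A) RNA of the CvP and the Epi was sequenced as single-end reads, 1 pooled library per tissue. Reads were mapped by the authors to NCBI37/mm9 with Bowtie 0.12.7, and the authors deposited an RPKM value per gene and library, obtained with ERANGE. ERANGE's options, its treatment of reads that match several places and any use of strand are not given in the sources used here. The deposited table also holds the authors' own CvP/Epi quotient, which was not used.

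Ratios were taken from the deposited RPKM with no pseudocount. The criteria of the study (CvP RPKM above 10, CvP/Epi above 3) and a 2-fold limit for genes that reached 1 RPKM in at least 1 library were counted. Depth was taken from the RPKM steps in rows of 0.1 kb, where 96.4% (CvP) and 97.4% (Epi) of values under 20 reads in rows of up to 0.5 kb lay within 0.1 of a whole read. Reads per gene for the intervals were estimated with the listed length or, where it was shorter, the longest GENCODE M1 coding transcript. Levels per annotated length instead used the reads implied by the listed length. No fold was given against a gene listed at 0. The depth and interval calculations were tested on simulated data.

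The members and lists were chosen with earlier results of these data known. The text names the members, the neuregulins and *Erbb4*, up to 3 genes past 2-fold with the highest and the lowest ratios of each pathway list, and the 3 genes with the highest level of each of 8 marker lists. Genes outside this rule are marked as such or named as markers or as genes listed at 0. Alternatives were pseudocounts, scalings, filters, folds and lengths. Python 3.11.15 with numpy 2.4.6, pandas 2.3.3, scipy 1.17.1 and matplotlib 3.10.9 was used.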

Additional observations from a re-analysis of the deposited data

How the results depend on the processing

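No paired analysis was possible because the CvP and the Epi were sequenced as 1 library each. None of the 4 members past 2-fold changed direction under any of the alternatives, but none could have. An equal pseudocount cannot reverse a ratio, and filters, folds and lengths leave it unchanged. Each scaling moved all ratios by the same factor, which was less than 2-fold. Under other pseudocounts and scalings, 24 of 40 ratios of the 10 genes lay within the counting interval of the deposited ratio. Members meeting the study's criteria for the CvP were 1 as deposited (*Hbegf*) and 2 (*Areg* added) after rescaling to a sum of 1000000 or at a minimum RPKM of 1 or 3, and those meeting the opposite criteria were 1 (*Epgn*) and 2 (*Ereg* added) after division by the median ratio. At 3-fold, 1 member (*Epgn*) was lower in the CvP. The median log2 ratio of the members was -0.47 divided by the median ratio and 0.15 rescaled. Pathway genes higher in the CvP were 18 divided by the median ratio and 13 at 3-fold, against 28, and those lower were 9 divided by the median ratio, 2 rescaled, 9 at 1.5-fold and 1 at 3-fold, against 4. Over all rows, division by the median ratio moved those more than 2-fold higher from 3545 to 2370 and those lower from 471 to 871. Rescaling moved them to 6120 and 414. The changes in the counts follow from the looser, stricter or shifted limits. With a pseudocount of 1 the ratio of *Epgn* was 0.0543. Of all rows past 2-fold, 88.3% were higher in the CvP as deposited, 73.1% divided by the median ratio and 93.7% rescaled. Per annotated length, a choice made after the data were seen, *Hbegf* and *Areg* held 75.2% (CvP) and 28.1% (Epi) of the ligand sum, and *Ereg* and *Epgn* 4.57% and 33.2%. At 23 reads, depth limits the CvP value of *Epgn* most.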
